A study of Mus musculus with 6 samples.

Results

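The A-, B-, D- and E-type cyclins were compared between testes of wild-type mice (WT) and of mice with the genotype called sKO, both at postnatal day 14. The group held the rows of the deposited count table with the symbols Ccna1, Ccna2, Ccnb1, Ccnb2, Ccnb3, Ccnd1, Ccnd2, Ccnd3, Ccne1 and Ccne2, which are 10 of the table's 50763 genes. In sKO mice Rif1 was deleted in germ cells before meiosis, per the series title, so the other cells of the testis keep the gene. The sources used here do not give the line that drives the deletion, or say whether each library of a group is a different animal. Each group had 3 poly(A) RNA libraries. P-values therefore reflect the spread among these libraries only, and that spread could be technical.

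Cyclins are the regulatory subunits of cyclin-dependent kinases (CDKs), and their levels set which kinase is active in each phase of the cell cycle. D-type cyclins carry growth signals to CDK4 and CDK6 and so to the RB protein, E-type cyclins act with CDK2 at the start of DNA replication, cyclin A2 acts in replication and early mitosis, and cyclins B1 and B2 act with CDK1 at entry into M phase. Ccna1 and Ccnb3 are the meiotic members. Ccna1 encodes cyclin A1, which male germ cells need to leave meiotic prophase, and Ccnb3 encodes cyclin B3, which is transcribed early in meiotic prophase and is needed in oocytes for anaphase of the first meiotic division. At this age the first wave of germ cells is passing through meiotic prophase, so the testis holds dividing spermatogonia and spermatocytes next to Sertoli and interstitial cells.

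Total counts per library were 15941672 to 18296594, and 3 counts, the limit that a count of 0 allows, corresponded to between 0.165 and 0.187 CPM, the count relative to the TMM-scaled library total on the usual scale. This limit covers counting error only because the reads carry no molecular identifiers. Rif1 itself had 83.7 to 129 CPM in WT libraries against 42.0 to 49.2 CPM in sKO libraries, with a log2 fold change of -1.17 (SE 0.15, edgeR adjusted p = 0.0145). Without WT library 2, sKO library 1 or sKO library 2 its edgeR adjusted p was 0.137, 0.0618 and 0.120. The deleted exons are not given, and the counts cover the whole gene.

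None of the 10 cyclins passed an adjusted p of 0.05 in the edgeR test over the 18860 genes tested. Of all those genes 1.3% passed in either direction, 1.27% as lower and 0.0318% as higher. All 10 were expressed enough to be tested. At an unadjusted p under 0.05, Ccnb2 was lower and Ccnd2 was higher in sKO, against 8.54% and 5.06% of all genes tested, and DESeq2 called 1 of the 10, Ccnb2, as lower, against 3.17% of the 22462 genes with a DESeq2 adjusted p as lower and 0.249% as higher. The libraries of the 2 groups did not overlap for 1 of the 10 cyclins, Ccnb2, against 20.2% of all genes tested (10.7% lower and 9.58% higher). The estimates were lower in sKO for 6 cyclins, against 44.7% of all genes tested, and higher for 4. The 10 estimates ran from -0.51 to 0.35 on the log2 scale. Their median was -0.03, beside 0.03 over all genes tested. In bulk tissue, fewer cells of a type and less RNA per cell cannot be told apart.

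**Figure D1:**
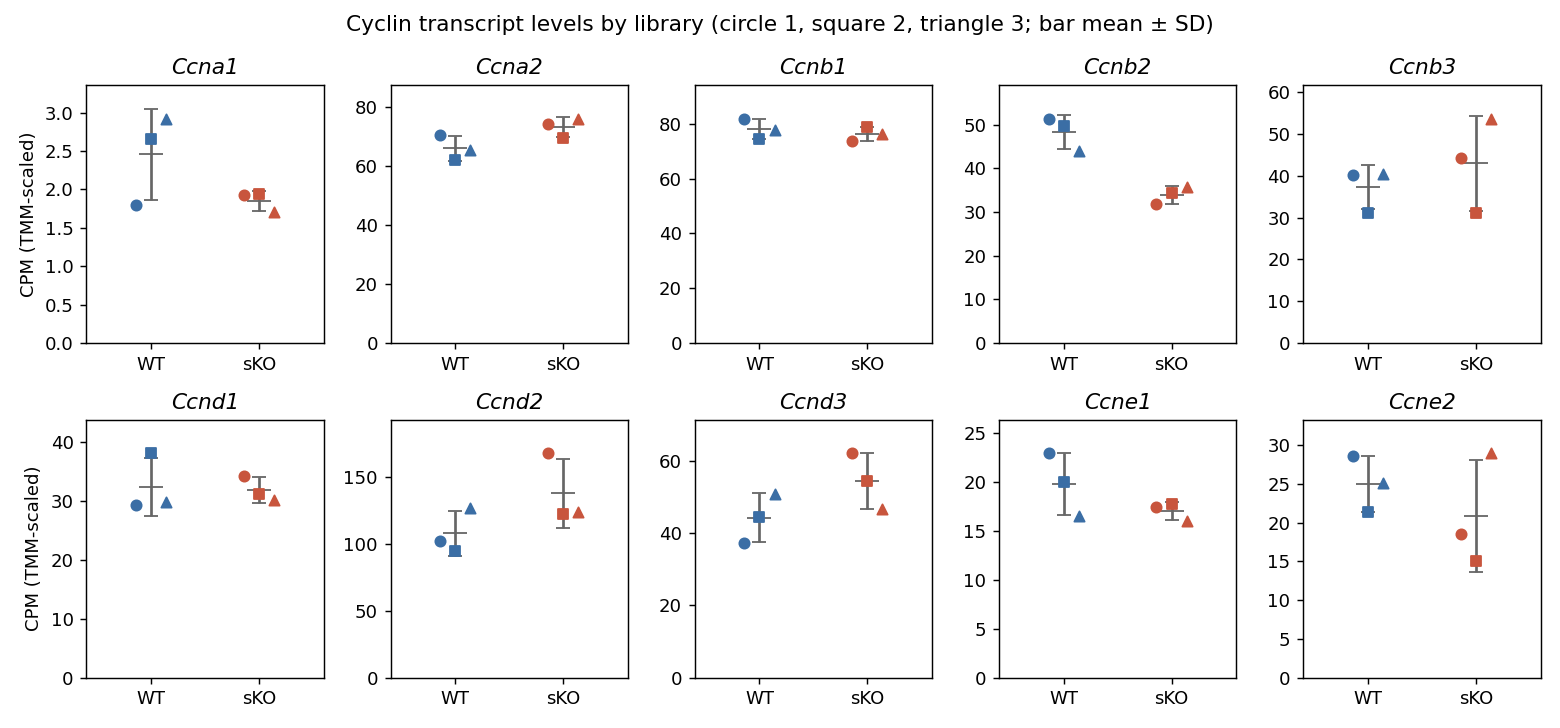
Transcript level of each cyclin in CPM on a linear axis from 0, with 1 point per library (blue WT, red sKO; circle, square and triangle for libraries 1, 2 and 3) and bars for the mean ± SD of 3 libraries. The Ccnb2 points of sKO, at 31.7 to 35.7 CPM, lie below those of WT, at 43.9 to 51.4 CPM, while the groups of the other 9 cyclins overlap.

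**Figure D2:**
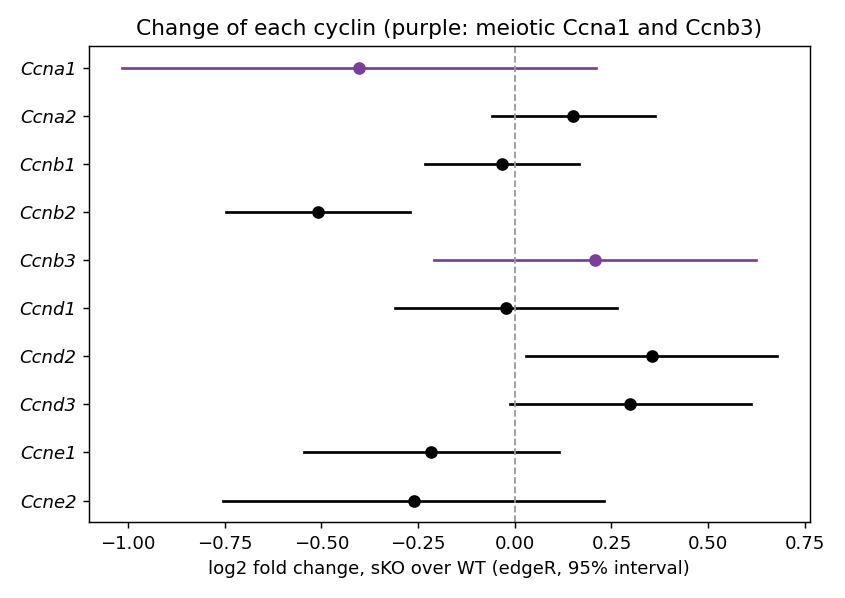
Log2 fold change of each cyclin in sKO over WT from edgeR, with its 95% interval as a line (purple for Ccna1 and Ccnb3). The intervals of Ccnb2 and Ccnd2 leave out 0, and the interval of Ccna1, the scarcest cyclin, is the widest.

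The meiotic cyclin of class A, Ccna1 on chromosome 3, was scarce. It was counted 32, 45 and 47 times in WT libraries 1 to 3 and 32, 32 and 31 times in sKO libraries 1 to 3. These counts correspond to 1.79, 2.65 and 2.92 CPM in WT and 1.92, 1.94 and 1.70 CPM in sKO. WT library 1 lay within the sKO range, and WT libraries 2 and 3 lay above every sKO library. The log2 fold change was -0.40 (SE 0.28, 95% interval -1.02 to 0.21, edgeR adjusted p = 0.566), so changes between a 0.495-fold and a 1.16-fold level fall inside the interval. With 1 library removed at a time the estimate ran from -0.59 without WT library 1 to -0.26 without WT library 3. Permuting the group labels over the 6 libraries gave an exact two-sided p of 0.3, where 0.1 is the lowest value that 3 against 3 can reach. Per the GENCODE annotation of GRCm38, 10.1% of the exon bases of Ccna1 also belong to an antisense transcript, and the sources used here do not give the strand setting of the counting.

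Markers of pachytene spermatocytes, the stage before cyclin A1 is known to act, were set beside Ccna1. Of the 13 tested markers of that list, which left Ccna1 out, edgeR called 4 lower and 0 higher, against 1.27% and 0.0318% of all genes tested. Their median log2 fold change was -1.55. Their summed level was 734 to 1543 CPM in WT and 297 to 497 CPM in sKO, and 2 of the 15 listed markers, Pgk2 and Adam3, had a count of 0 in at least 1 library. On the log2 scale Tekt1, a filament protein, fell by 2.95 with edgeR adjusted p = 0.0245, and the protease gene Acr fell by 3.22 with edgeR adjusted p = 0.0243. No marker of the list was called with limma-voom, with the replicate block, or without WT library 2, sKO library 1 or sKO library 2. DESeq2 called 10 lower, against 3.17% of the 22462 genes with a DESeq2 adjusted p. Without WT library 1 edgeR called 2, without WT library 3 it called 8, and without both libraries numbered 1 it called 3. WT library 1 had the highest summed level of these markers and the lowest Ccna1 level of the 3 WT libraries. The difference between Ccna1 and the markers was not itself tested.

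Its mitotic counterpart Ccna2, also on chromosome 3, was measured at 70.4, 62.0 and 65.4 CPM in WT and 74.2, 69.4 and 76.0 CPM in sKO. The groups overlapped, with sKO library 2 below WT library 1. edgeR estimated a log2 fold change of 0.15 (SE 0.10, 95% interval -0.06 to 0.36, edgeR adjusted p = 0.533), and 0.09 without sKO library 3. Exon bases shared with Exosc9 on the opposite strand made up 12.5% of the gene. The log2 ratio of Ccna1 to Ccna2 counts, which needs no library scaling, was -5.27, -4.53 and -4.47 in WT and -5.25, -5.14 and -5.46 in sKO. Its mean differed by -0.52 (SE 0.27), with an exact two-sided permutation p of 0.3 and an adjusted p of 0.48 over the 8 pairs of cyclins compared within a class. At equal exon length Ccna1 made up 7.70% ± 2.03 of the A-type signal in WT and 5.35% ± 0.556 in sKO (SD, n = 3 each).

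Among the B-type cyclins, Ccnb2 on chromosome 9 stood lower in sKO. It was measured at 51.4, 49.6 and 43.9 CPM in WT libraries 1 to 3 and at 31.7, 34.4 and 35.7 CPM in sKO libraries 1 to 3. Every sKO library lay below every WT library, as for 10.7% of all genes tested. The WT mean was 48.3 ± 3.90 CPM and the sKO mean 33.9 ± 2.05 CPM (SD, n = 3 each), a level 29.7% below WT, which is more than the spread between replicates. The log2 fold change was -0.51 (SE 0.11, 95% interval -0.75 to -0.27), and the edgeR adjusted p was 0.0510. Ccnb2 had rank 253 by p among all genes tested, and 246 genes passed the threshold.

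Whether Ccnb2 was called depended on the method and on single libraries. Its adjusted p was 0.00449 with DESeq2, 0.0643 with limma-voom, and in edgeR 0.0472 with RLE factors, 0.0436 with upper-quartile factors, 0.0450 without robust estimation and 0.00291 without the low-count filter. Leaving out a library in edgeR gave adjusted p = 0.123, 0.159 and 0.0417 without WT libraries 1, 2 and 3, and 0.184, 0.236 and 0.0306 without sKO libraries 1, 2 and 3. The log2 fold change stayed between -0.58 and -0.46 over these 6 fits. Without both libraries numbered 1 it was -0.43 (edgeR adjusted p = 0.297).

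Ccnb1 on chromosome 13, which shares the kinase partner of Ccnb2, had nearly equal means in the 2 groups. It was measured at 81.9, 74.6 and 77.6 CPM in WT and 73.6, 78.8 and 76.4 CPM in sKO. The groups overlapped throughout, and the log2 fold change was -0.03 (SE 0.09, 95% interval -0.23 to 0.16, edgeR adjusted p = 0.909). The log2 ratio of Ccnb1 to Ccnb2 counts compares the pair within each library. It was 0.67, 0.59 and 0.82 in WT and 1.21, 1.20 and 1.09 in sKO, so every sKO library lay above every WT library. Ccnb1 had 1.62 times the counts of Ccnb2 in WT and 2.25 times in sKO. The difference in log2 ratio was 0.47 (SE 0.08), with an exact two-sided permutation p of 0.1, the smallest possible, and an adjusted p of 0.48 over the 8 pairs. With 1 library removed at a time it ranged from 0.42 to 0.54.

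The mean summed level of spermatocyte markers was lower in sKO, and that of Sertoli cell markers was higher, as was that of Leydig cell markers, given below. The part of these cells in the Ccnb2 difference was not tested. The summed pachytene markers separated the groups as given above. Of 13 early prophase markers edgeR called 2 lower and 0 higher, against 1.27% and 0.0318% of all genes tested. Their median log2 fold change was -0.60, and their summed level was 1834 to 2872 CPM in WT and 1297 to 2001 CPM in sKO. The called markers were Tex101, a surface protein of germ cells, which fell by 0.75 on the log2 scale (edgeR adjusted p = 0.0245), and Spo11, which makes the breaks that start meiotic recombination and fell by 0.99 (edgeR adjusted p = 0.0253). The fits that called no pachytene marker called neither of these. DESeq2 called 3 markers of this list lower, against 3.17% of the 22462 genes with a DESeq2 adjusted p. Of 14 Sertoli cell markers 0 passed edgeR's adjusted threshold. An unadjusted p under 0.05 towards higher levels was found for 7, against 5.06% of all genes tested (8.54% towards lower levels). The number was 1 without sKO library 2, 2 without sKO library 1, 3 without WT library 1 and 4 with the replicate block. It was 7 without WT library 2 or WT library 3, and 5 without sKO library 3. The summed level of the 14 was 5781 to 6709 CPM in WT and 6986 to 8459 CPM in sKO. The smallest p among them belonged to the transcription factors Wt1 (log2 fold change 0.26, edgeR adjusted p = 0.181) and Sox9 (log2 fold change 0.26, edgeR adjusted p = 0.243). For early prophase and Sertoli cells every marker had at least 1 count in every library. Markers of undifferentiated spermatogonia, which divide by mitosis, summed to 398 to 422 CPM in WT and 428 to 458 CPM in sKO, with 0 of 14 called by edgeR and an unadjusted p under 0.05 for 1 lower marker, Id4 (log2 fold change -0.69, edgeR adjusted p = 0.200), and 1 higher marker, Ret (log2 fold change 0.30, edgeR adjusted p = 0.289).

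The meiotic cyclin of class B, Ccnb3 on the X chromosome, varied between libraries of the same group by more than the groups differed. It was measured at 40.2, 31.1 and 40.4 CPM in WT and 44.1, 31.1 and 53.7 CPM in sKO. The library numbered 2 was the lowest of each group, and sKO library 3 was the highest of all 6. The log2 fold change was 0.21 (SE 0.19, 95% interval -0.21 to 0.62, edgeR adjusted p = 0.676). The estimate was -0.02 without sKO library 3, 0.09 without WT library 2 and 0.40 without sKO library 2. Set beside the mitotic cyclins of its class, the log2 ratio of Ccnb3 to Ccnb1 counts differed by 0.21 (SE 0.27, exact two-sided permutation p = 0.5, adjusted p = 0.667 over the 8 pairs), and by 0.036 to 0.45 with 1 library removed at a time, where sKO libraries 3 and 2 set the ends. The log2 ratio of Ccnb3 to Ccnb2 was -0.35, -0.67 and -0.12 in WT and 0.48, -0.15 and 0.59 in sKO. It differed by 0.69 (SE 0.28), but sKO library 2 lay below WT library 3, and the exact two-sided permutation p was 0.2 (adjusted p = 0.48 over the 8 pairs).

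**Figure D3:**
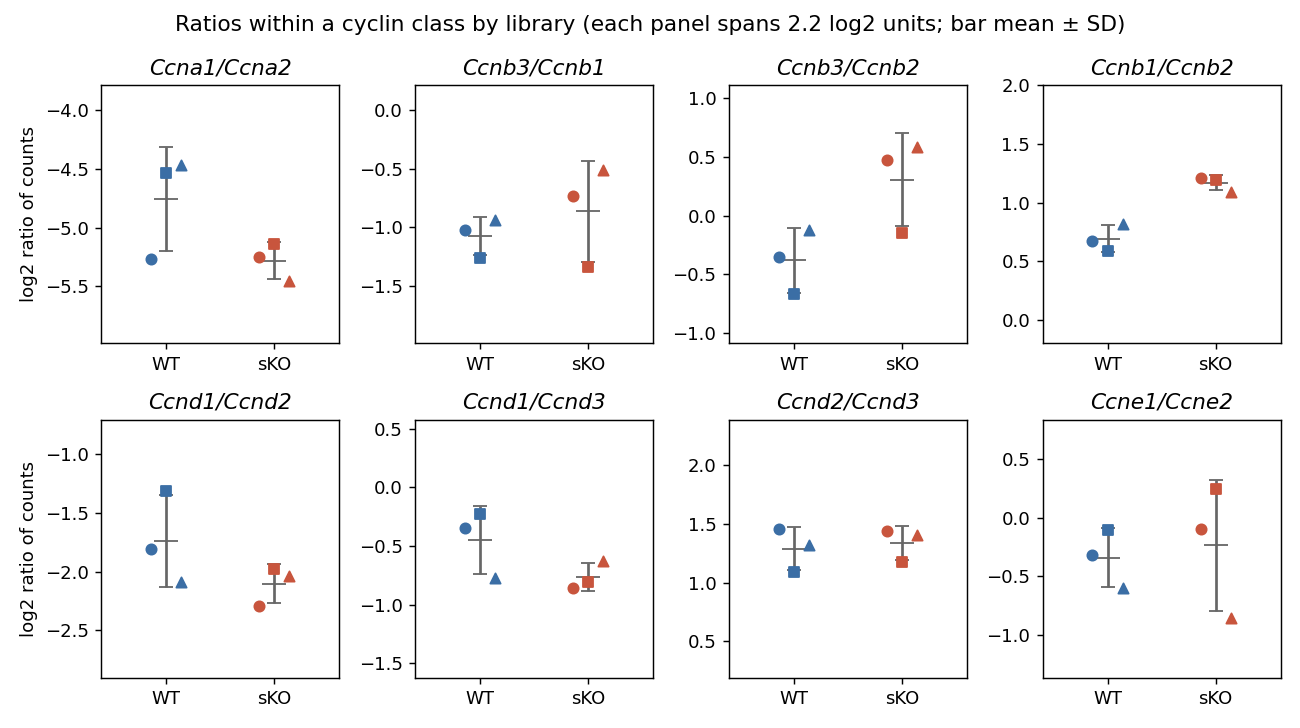
Log2 ratio of the counts of 2 cyclins of the same class in each library, for the 8 pairs, with bars for the mean ± SD of 3 libraries (blue WT, red sKO; circle, square and triangle for libraries 1, 2 and 3). Each panel spans the same height, so distances can be compared between panels, and Ccnb1/Ccnb2 is the pair whose groups do not overlap.

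The RefSeq promoter table of GRCm38.p6 held 6 of the 10 cyclins. The 250 bases upstream of the start site are shown for the meiotic cyclins Ccna1 and Ccnb3 and for the pair Ccnb1 and Ccnb2. The count ratio of that pair did not overlap between the groups, at an exact two-sided permutation p of 0.1 (adjusted p = 0.48 over the 8 pairs). Capitals mark matches on either strand to CCAAT, the box bound by NF-Y (ATTGG on the opposite strand). They also mark TTTGAA, a form of the cell cycle genes homology region (TTCAAA on the opposite strand). Other forms of that region and bases downstream of the start site were not searched. The motif TTTNNCGC, an E2F-type site, was searched on both strands and matched none of the 4. No 2 motifs overlapped in these windows. The Ccna1 window is chr3:55055056-55055305, minus strand, the Ccnb3 window is chrX:7041620-7041869, minus strand, the Ccnb1 window is chr13:100786487-100786736, minus strand, and the Ccnb2 window is chr9:70421555-70421804, minus strand.
Ccna1: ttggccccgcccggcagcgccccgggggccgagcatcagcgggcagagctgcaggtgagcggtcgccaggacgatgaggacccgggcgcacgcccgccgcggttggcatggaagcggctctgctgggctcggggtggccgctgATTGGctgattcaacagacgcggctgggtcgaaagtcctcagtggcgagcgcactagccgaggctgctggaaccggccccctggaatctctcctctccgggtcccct
Ccnb3: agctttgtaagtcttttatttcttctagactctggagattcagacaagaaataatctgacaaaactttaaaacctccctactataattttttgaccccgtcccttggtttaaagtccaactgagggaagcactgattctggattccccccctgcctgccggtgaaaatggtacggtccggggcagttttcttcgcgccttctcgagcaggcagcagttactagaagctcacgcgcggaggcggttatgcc
Ccnb1: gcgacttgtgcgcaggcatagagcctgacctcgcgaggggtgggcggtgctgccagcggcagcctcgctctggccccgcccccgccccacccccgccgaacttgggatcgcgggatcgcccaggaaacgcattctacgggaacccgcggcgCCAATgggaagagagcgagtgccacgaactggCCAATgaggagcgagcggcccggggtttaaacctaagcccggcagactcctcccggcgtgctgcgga
Ccnb2: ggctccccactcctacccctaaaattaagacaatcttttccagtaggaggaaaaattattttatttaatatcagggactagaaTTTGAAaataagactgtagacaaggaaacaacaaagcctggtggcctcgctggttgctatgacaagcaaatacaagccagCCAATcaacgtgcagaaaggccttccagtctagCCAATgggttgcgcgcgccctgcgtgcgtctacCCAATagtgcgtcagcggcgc

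Ccnb1 held 2 CCAAT matches, which begin 99 and 67 bases upstream of the start site, and Ccnb2 held 3, which begin 87, 54 and 21 bases upstream. Neighbouring matches were 32 bases apart in Ccnb1 and 33 bases apart for both steps in Ccnb2. Ccnb2 also held TTTGAA at 167 bases upstream, farther from the start site than its 3 CCAAT matches, and whether it acts as a homology region was not tested. Ccna1 held 1 CCAAT match on the opposite strand, and Ccnb3 held none of the 3 motifs. Of 32851 promoter windows of this length in the table, 33.8% held CCAAT, 16.0% TTTGAA and 4.28% TTTNNCGC. These matches describe the letters of the reference in the windows shown, and no binding was measured in this series.

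Of the D-type cyclins, Ccnd2 and Ccnd3 had the 2 highest estimates among the 10. Ccnd2 on chromosome 6, known from spermatogonia that start to differentiate, was measured at 103, 94.7 and 127 CPM in WT and 168, 122 and 124 CPM in sKO. WT library 3 lay above sKO libraries 2 and 3, and sKO library 1 was the highest of all. The log2 fold change was 0.35 (SE 0.15, 95% interval 0.03 to 0.68, edgeR adjusted p = 0.317). Without sKO library 1 the estimate was 0.17.

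Ccnd3 on chromosome 17 was measured at 37.3, 44.4 and 50.9 CPM in WT and 62.0, 54.3 and 46.6 CPM in sKO, with sKO library 1 again the highest. Its log2 fold change was 0.30 (SE 0.14, 95% interval -0.01 to 0.61, edgeR adjusted p = 0.393), 0.19 without WT library 1 and 0.17 without sKO library 1. This sKO library also held epididymal transcripts, with 5 epididymis markers summing to 147 CPM against 1.26 to 16.3 CPM in the other 5 libraries, and the highest sum of peritubular myoid markers, 1129 CPM against 623 to 849 CPM. Of these 5 epididymis markers Crisp1, Adam7, Lcn8 and Rnase10 had a count of 0 in at least 1 library, and every one of the 6 myoid markers was counted in every library. The part of these cells in the 2 estimates was not tested.

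Ccnd1 on chromosome 7 was measured at 29.3, 38.0 and 29.7 CPM in WT and 34.2, 31.1 and 30.1 CPM in sKO. The groups overlapped, with the highest and the lowest of the 6 values both in WT. edgeR estimated a log2 fold change of -0.02 (SE 0.13, 95% interval -0.31 to 0.26, edgeR adjusted p = 0.956). Of its exon bases 23.4% are shared with LTO1 on the opposite strand, the largest such share among the 10 cyclins. The log2 ratios among the D-type cyclins differed by -0.36 (SE 0.25) for Ccnd1 to Ccnd2, -0.31 (SE 0.18) for Ccnd1 to Ccnd3 and 0.05 (SE 0.14) for Ccnd2 to Ccnd3. Exact two-sided permutation tests gave p = 0.3, 0.2 and 0.7, and adjusted p = 0.48, 0.48 and 0.8 over the 8 pairs. With 1 library removed at a time the first difference ran from -0.54 without WT library 3 to -0.15 without WT library 2, and the second from -0.48 to -0.20 without the same libraries.

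Both E-type cyclins had lower estimates that were within the spread of the libraries. Ccne1 on chromosome 7 was measured at 22.9, 19.9 and 16.5 CPM in WT and 17.4, 17.7 and 16.0 CPM in sKO. WT library 3 lay inside the sKO range, and the log2 fold change was -0.22 (SE 0.15, 95% interval -0.55 to 0.11, edgeR adjusted p = 0.568). Without WT library 1 it was -0.10 and without WT library 3 it was -0.33. Ccne2 on chromosome 4 was measured at 28.5, 21.4 and 25.1 CPM in WT and 18.6, 15.02 and 28.9 CPM in sKO. The sKO libraries of Ccne2 spanned the whole WT range, with sKO library 3 the highest and sKO library 2 the lowest of all 6. Its log2 fold change was -0.26 (SE 0.22, 95% interval -0.75 to 0.23, edgeR adjusted p = 0.655), and it was -0.61 without sKO library 3, -0.15 without WT library 1 and -0.07 without sKO library 2. Ints8, on the opposite strand, shares 17.4% of the Ccne2 exon bases. The log2 ratio of Ccne1 to Ccne2 differed by 0.11 (SE 0.35, exact two-sided permutation p = 0.8, adjusted p = 0.8 over the 8 pairs).

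Levels of different cyclins were compared per kilobase of exon, with the exon lengths of the GENCODE annotation of GRCm38. In WT the order from high to low was Ccnb2, Ccnb1, Ccna2, Ccnd2, Ccnb3, Ccne1, Ccne2, Ccnd1, Ccnd3 and Ccna1. Ccnb2 stood at 31.5 ± 2.55 CPM per kb in WT and 22.2 ± 1.34 CPM per kb in sKO (SD, n = 3 each), and by this length was the highest of the 10 in each of the 6 libraries. Ccna1 was the lowest in each of the 6 libraries, at 1.34 ± 0.320 and 1.01 ± 0.0710 CPM per kb (SD, n = 3 each). From Ccnb3, at 8.16 ± 1.16 CPM per kb in WT, to Ccnd1, at 6.87 ± 1.04 CPM per kb (SD, n = 3 each), neighbours in the order overlapped between the WT libraries, and the other neighbours did not.

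The order rests on the length used. By the longest annotated transcript instead of all exons, Ccnb1 came to 31.3 CPM per kb in WT, beside 31.5 for Ccnb2. In sKO that length put Ccnb1 first at 30.6 CPM per kb and Ccna2 next at 24.7, both above Ccnb2 at 22.2. Ccnb2 was then the highest in WT libraries 1 and 2 only, and Ccna1 was still the lowest in all 6 libraries. In the WT order Ccnd3 moved from place 9 to place 5 and Ccnb3 from place 5 to place 9. Within class B and per exon length, Ccnb2 made up 54.2% ± 2.84 of the signal in WT and 44.7% ± 1.90 in sKO, and Ccnb3 made up 14.0% ± 1.94 and 18.8% ± 4.13 (SD, n = 3 each). The table lists Ccnb1-ps, Ccnb2-ps and Ccnd3-ps, pseudogene copies of 3 members, apart from their parents. Ccnb1-ps held 4 to 10 counts per library, Ccnd3-ps 0 to 4, and Ccnb2-ps had 0 in all 6, so reads assigned to these copies were few.

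**Figure D4:**
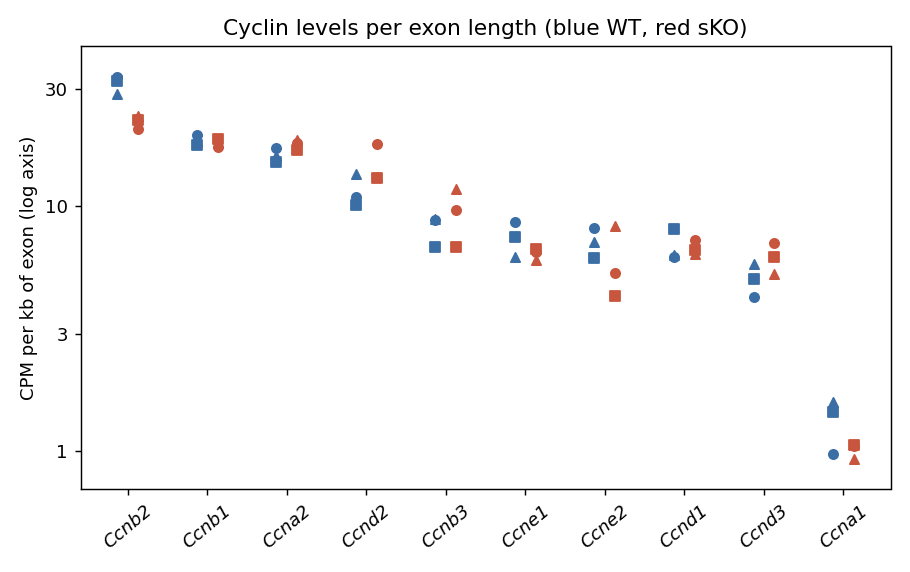
Level of each cyclin in CPM per kb of exon on a log axis, in order of the WT mean, with 1 point per library (blue WT, red sKO; circle, square and triangle for libraries 1, 2 and 3). With all exons as the length Ccnb2 is the highest and Ccna1 the lowest in all 6 libraries (by the longest transcript Ccnb1 and Ccna2 exceed Ccnb2 in the sKO means), and the points of Ccnb3, Ccne1, Ccne2 and Ccnd1 overlap.

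By the root mean square difference of log2 CPM centred on the WT mean over the 6 libraries, the patterns nearest to Ccna1 among 11962 genes averaging 5 CPM or more were those of Gpr162 (0.12), Dnase1 (0.13), Gpr179 (0.13) and Ptprb (0.15). The median over those genes was 0.39. For Ccnb3 the nearest were Amigo2 (0.08), Spc25 (0.09), Lipt1 (0.12) and Tmem68 (0.12), beside a median of 0.33 over 11961 genes. Genes picked as the nearest lie below the median by that choice, and no shared function is read from the distances. Spc25 encodes a kinetochore protein. It was measured at 41.8, 31.3 and 37.3 CPM in WT and 39.8, 32.8 and 50.2 CPM in sKO, and like Ccnb3 it was lowest in the libraries numbered 2 and highest in sKO library 3.

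The kinases that bind these cyclins did not pass the test. Of Cdk1, Cdk2, Cdk4 and Cdk6, edgeR called 0, and the median log2 fold change was 0.12. At an unadjusted p under 0.05, 1 was higher and 0 lower, against 5.06% and 8.54% of all genes tested. Cdk1, the partner of the A- and B-type cyclins in M phase, ranged over 56.0 to 65.0 CPM in the WT libraries and 51.0 to 55.8 CPM in the sKO libraries (log2 fold change -0.17, SE 0.10, edgeR adjusted p = 0.519). Cdk6, a partner of the D-type cyclins, ranged over 43.2 to 52.3 CPM in the WT libraries and 52.4 to 63.2 CPM in the sKO libraries (log2 fold change 0.28, SE 0.11, edgeR adjusted p = 0.296). Neither gene overlapped between the groups, which held for 20.2% of all genes tested. Of 18 other cyclins, edgeR called 0, with 1 lower and 3 higher at an unadjusted p under 0.05 and a median of 0.02. Cntd1, a cyclin-related gene that crossover formation needs, had the largest difference among them, with 142, 81.9 and 67.2 CPM in WT and 18.9, 23.4 and 46.4 CPM in sKO (log2 fold change -1.71, SE 0.45, edgeR adjusted p = 0.188). Ccng1, a target of p53, had a WT mean of 48.8 ± 5.62 CPM and an sKO mean of 62.2 ± 2.19 CPM (SD, n = 3 each), with edgeR adjusted p = 0.169.

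Genes that destroy cyclins held 2 of the 3 called members of the cell cycle lists. Of 27 tested members of the ubiquitin ligases and their regulators, 2 fell and 0 rose, where 1.27% of all genes tested fell, and the median log2 fold change was -0.02. Cdc20, which activates the anaphase-promoting complex against B-type cyclins, was measured at 152, 171 and 131 CPM in WT and 89.9, 95.0 and 107 CPM in sKO, with log2 fold change -0.64 (SE 0.11, edgeR adjusted p = 0.0314). Ube2s, the enzyme that extends ubiquitin chains on that complex's targets, was measured at 202, 200.4 and 166 CPM in WT and 126, 132 and 143 CPM in sKO, and fell by 0.50 (SE 0.10, edgeR adjusted p = 0.0452). For both genes every sKO library lay below every WT library, as for 10.7% of all genes tested. Of 11 M-phase kinases 1 fell and 0 rose. For 10 of the 11 the estimate was lower, against 44.7% of all genes tested, and the median was -0.26. The called member was Nek2, a kinase of the centrosome, with a WT mean of 134 ± 20.0 CPM and an sKO mean of 79.7 ± 12.2 CPM (SD, n = 3 each). Its log2 fold change was -0.75, with SE 0.13 and edgeR adjusted p = 0.0314. None of these 3 genes was called without WT library 1, WT library 2, sKO library 1 or sKO library 2, where the edgeR adjusted p lay between 0.0515 and 0.235.

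Of the other lists none had a member that edgeR called. Among 10 tested genes of CDK activation 3 were lower and 0 higher at an unadjusted p under 0.05, against 8.54% and 5.06% of all genes tested. The median of these 10 was -0.08. Cks2, a small CDK-binding subunit, was measured at 73.9, 49.0 and 52.3 CPM in WT and 33.3, 37.5 and 36.8 CPM in sKO (log2 fold change -0.70, SE 0.15, edgeR adjusted p = 0.0518), and Pkmyt1, a kinase that holds CDK1 inactive, had a log2 fold change of -0.56 (SE 0.17, edgeR adjusted p = 0.150). Of 7 CDK inhibitors 1 was lower and 1 higher at an unadjusted p under 0.05, with a median of 0.02. These were Cdkn2c, the CDK4 and CDK6 inhibitor p18, with 29.9 ± 5.40 CPM for WT against 19.9 ± 1.89 CPM for sKO, and Cdkn1b, which encodes p27, with 43.7 ± 0.936 CPM for WT against 50.9 ± 2.48 CPM for sKO (SD, n = 3 each). Their edgeR adjusted p was 0.0901 and 0.349.

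Of 25 transcription regulators of cyclin genes, 3 were lower and 2 higher at an unadjusted p under 0.05, against 8.54% and 5.06% of all genes tested. The median of these 25 was 0.02. Mybl1, the A-MYB factor of pachytene spermatocytes, and Rbl1, the pocket protein p107, had log2 fold changes of -0.59 (SE 0.20) and -0.58 (SE 0.21) at edgeR adjusted p of 0.218 and 0.249, and both overlapped between the groups. Of 8 genes of meiotic entry and exit from mitosis, 2 were lower and 0 higher at an unadjusted p under 0.05, with a median of -0.01. They were Ythdc2 (log2 fold change -0.45, SE 0.12, edgeR adjusted p = 0.118) and Meioc (log2 fold change -0.60, SE 0.22, edgeR adjusted p = 0.258), whose products bind each other and are known to lower Ccna2 transcripts when germ cells enter meiosis. For Ythdc2 the sKO libraries all lay below the WT libraries, as for 10.7% of all genes tested. Ccna2, as given above, overlapped between the groups, and a link between its level and those of Ythdc2 and Meioc was not tested.

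**Figure D5:**
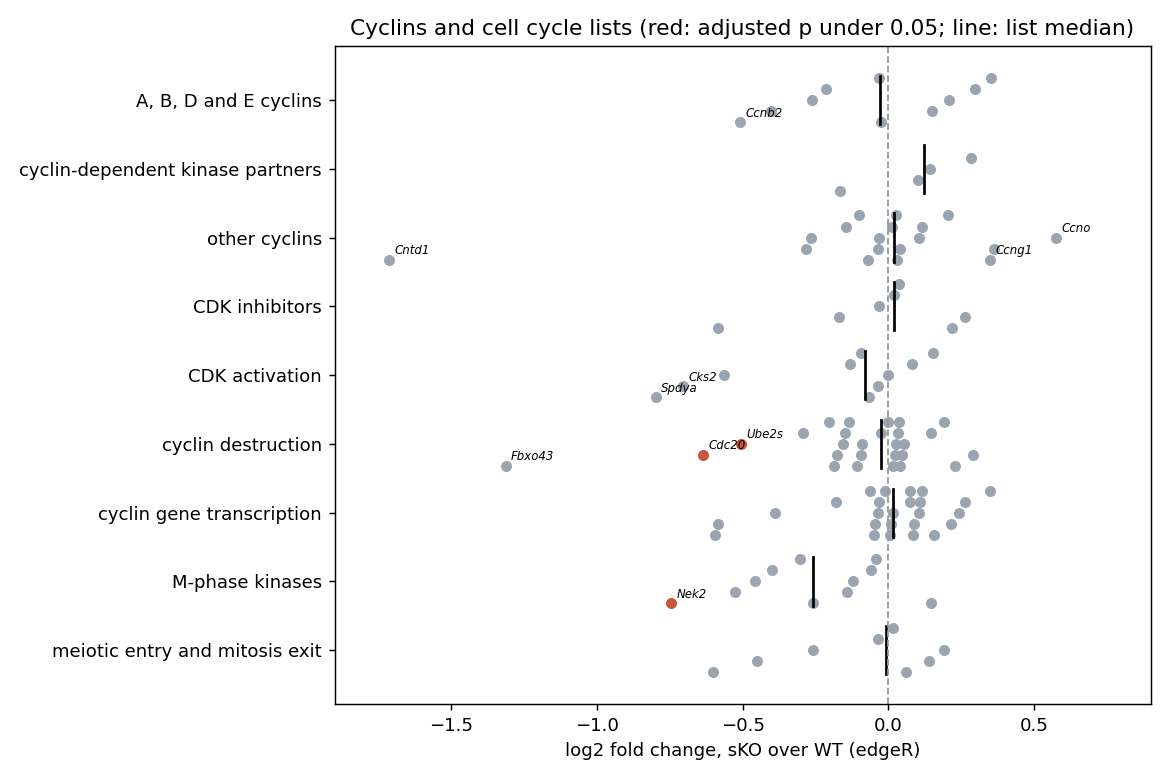
Log2 fold change in sKO over WT for each tested gene of the 10 cyclins and the 8 cell cycle lists, with 1 point per gene, red for an edgeR adjusted p under 0.05 and a black line at each median. The red points are Cdc20, Ube2s and Nek2, and the M-phase kinases have the lowest median, -0.26; the vertical offset within a row only separates points.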

How the data were processed

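Libraries from poly(A) testis RNA of 3 WT and 3 sKO samples were used. The authors deposited 1 table of unnormalized read counts, with a row for each gene symbol. Per the submitters' processing notes, reads were handled on build mm39 with Trim Galore, HISAT2 and featureCounts. The sources used here do not give versions, annotation, strand setting or how multi-mapping reads were counted. The columns named con and scKO were read as WT and sKO and matched to samples by number. Of 50763 genes, 15678 had 0 counts in all libraries.

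Counts were tested with edgeR 4.0.16 in R 4.3.3 (filterByExpr, TMM, robust quasi-likelihood F test, no covariates), with Benjamini-Hochberg adjustment over 18860 genes and a threshold of 0.05. Standard errors came from the F statistic. Ratios used a prior count of 0.5. Alternatives used DESeq2 1.42.0, limma 3.58.1 (voom), other scaling factors, no low-count filter, no robust estimation, a replicate block and fewer libraries.

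The members and gene lists were chosen with earlier results of these data known. The genes named are the 10 cyclins, Rif1, the called members of each cell cycle list or else the 2 with the smallest p, up to 2 with the smallest p of a cell type list, and the 4 nearest to Ccna1 and to Ccnb3. Lists of differentiating spermatogonia, spermatids, Leydig cells, macrophages, endothelial cells and adipose tissue were also measured. Exon lengths and overlaps came from GENCODE M21 (GRCm38), so no coordinates of genes are given. On data simulated for sKO against WT (18511 genes tested), edgeR found 81 of the 100 genes altered by 1 log2 unit and 100 of the 100 altered by 2, with 21 false calls. Smaller changes were not simulated, so this does not cover the sizes of the cyclin estimates, -0.51 to 0.35. Within groups, all pairs of libraries differed beyond counting noise, with 4.45 to 20.2 as the ratio of chi-square to its degrees of freedom.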

Additional observations from a re-analysis of the deposited data

How the results depend on the processing

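Depth limits Ccna1 most, with 31 to 47 counts per library. The table's replicate numbers share no stated origin. Deviations from the group means correlated at -0.34, 0.12 and -0.28 (across genes) for libraries numbered 1, 2 and 3. Deviations taken from a mean of 3 libraries constrain each other, so these values cannot decide whether libraries of the same number share an origin. With a replicate block edgeR called 21 genes lower and 0 higher, against 240 and 6 without it, and 0 genes of any cell cycle list. At an unadjusted p under 0.05 the block left 1324 genes lower and 605 higher. Over all genes DESeq2 called 711 lower and 56 higher, limma-voom 0 and 0 (1598 and 932 at an unadjusted p under 0.05), and edgeR 992 and 154 without the low-count filter. Without both libraries numbered 1 it called 155 lower. Leaving out each library gave 0 to 624 lower and 0 to 31 higher.

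Ccnb2 passed the threshold with DESeq2 (-0.52), RLE factors (-0.52), upper-quartile factors (-0.50), no low-count filter (-0.52) and no robust estimation (-0.51), and its leave-one-out range was -0.58 to -0.46. With the replicate block its edgeR adjusted p was 0.175. The other 9 cyclins passed under none of the alternatives run. Leave-one-out ranges crossed 0 for Ccnb1 (-0.068 to 0.0036), Ccnb3 (-0.020 to 0.40), Ccnd1 (-0.10 to 0.11) and the log2 ratios Ccnd2/Ccnd3 (-0.049 to 0.13) and Ccne1/Ccne2 (-0.13 to 0.41). Ccnb1 was also reversed, at 0.014, without both libraries numbered 1. The causes were not tested.

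DESeq2 called lower 1 gene of the other cyclins, 1 CDK inhibitor, 2 genes of CDK activation and 1 of meiotic entry, where edgeR called 0. Without the low-count filter edgeR called lower 1 CDK inhibitor, 3 genes of CDK activation, 2 transcription regulators, 2 M-phase kinases and 2 genes of meiotic entry. RLE and upper-quartile factors each added 1 gene of CDK activation, and fitting without robust estimation 1 of the other cyclins. limma-voom, the replicate block and the fit without both libraries numbered 1 called 0 genes of cyclin destruction and 0 M-phase kinases. Leaving out each library gave 0 to 3 called lower for cyclin destruction, 0 to 2 for CDK activation and for meiotic entry, and 0 to 1 for M-phase kinases, other cyclins and transcription regulators.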

Other observations

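Other cell type lists gave these values. Differentiating spermatogonia summed to 798 to 1006 CPM in WT and 917 to 922 CPM in sKO, Leydig cells to 361 to 502 and 536 to 646 CPM, macrophages to 91.4 to 129 and 109 to 155 CPM, and endothelial cells to 107 to 162 and 130 to 169 CPM. Spermatid markers summed to 10.8 to 17.1 CPM in WT and 10.96 to 12.7 CPM in sKO, and adipose markers to 10.3 to 39.7 and 10.5 to 35.5 CPM. Of the 10 spermatid markers 4 were tested, and Prm1, Prm2, Acrv1 and Odf1 had a count of 0 in at least 1 library. Among the tested spermatid markers edgeR called 1 lower, where 1.27% of all genes tested were called lower. This was the actin-like Actl7b (log2 fold change -3.40, SE 0.66, edgeR adjusted p = 0.0417). edgeR called 0 members of the other 5 lists. In those, 2 differentiating spermatogonia markers were lower and 2 Leydig cell markers higher at an unadjusted p under 0.05, against 8.54% and 5.06% of all genes tested. Actl7b was not called with limma-voom, with the replicate block, or without WT library 1, WT library 2, sKO library 1, sKO library 2 or both libraries numbered 1. In the other 5 lists the alternatives called 1 differentiating spermatogonia marker, lower, in edgeR without the low-count filter.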
